A study of Homo sapiens with 15 samples.

Results

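The scramble cardiomyocytes are the 3 libraries of untargeted control cells in a study of ATRNL1, out of 15 libraries in 5 groups of 3, and they were chosen by the names of their columns in the deposited table. The cells came from H7, an established line of human embryonic stem cells with the genotype given as wt, and are labelled as induced atrial cardiomyocytes. Per the labels' protocols, floating spheroids were steered to heart muscle with activin A, BMP4, bFGF and a short WNT activation followed by WNT inhibition, and to the atrial fate on day 3 with 1 nM TTNPB and 100 nM retinoic acid, both retinoids. Spheroids were dissociated on day 17 and the cells were given a scramble siRNA, a control that targets no gene by design. The labels' text on cell culture stops at the dissociation. The harvest day, the siRNA dose and later culture steps are therefore not known here. No separate cultures are named, so the 3 libraries may be repeats of 1 differentiation, and the spread between them may be technical. Nothing is compared between groups here. The values describe what the control cells expressed, and how far the 3 libraries differed from each other.

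Heart muscle cells contract through the sarcomere, in which myosin thick filaments pull on actin thin filaments when calcium binds troponin. Atrial and ventricular cells build the sarcomere from partly different genes. Adult human atria use the atrial myosin light chains MYL7 and MYL4 and much of the heavy chain MYH6, and they secrete the hormone NPPA, whereas ventricles use MYL2, MYL3 and MYH7. Cardiomyocytes made from stem cells resemble fetal heart cells, and several of these genes are not yet restricted to 1 chamber in the fetal heart.

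Total counts of genes were 44584366, 56884016 and 107062380 in libraries 1, 2 and 3. CPM (counts-per-million values) were set with library sizes scaled by edgeR's TMM factors. TPM are counts divided by the summed exon length of the gene in GENCODE release 29 and scaled to the same sum in each library, and so are a level per length. Levels are compared between genes only in TPM. At 20 CPM a gene had 884, 1154 and 2129 counts, and the counting error alone was 3.36%, 2.94% and 2.17%. A count of 0 allows up to 3 counts, which is 0.0679, 0.0520 and 0.0282 CPM in the 3 libraries, for counting error only.

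Library 3 lay between libraries 1 and 2 for most genes. Of 7295 genes at 20 CPM or more (library size only), 76.0% had their library 3 value between the other two. The same share was 11.5% for library 1 and 12.5% for library 2. The best fit to library 3, weighted by counting variance, was a mix of 51.1% of library 1 and 48.9% of library 2. An unweighted fit at 20 CPM or more gave 54.9% of library 1. Log2 CPM of library 3 departed from the weighted mix with an SD of 0.0413, against an SD of 0.241 between libraries 1 and 2. Squared deviations from the weighted mix were 3.50 times those that counting error gives, against 108.8 times between libraries 1 and 2. In 4 of the 5 groups, scramble not among them, the number in 1 sample title joins the numbers of the other two titles. Whether library 3 came from a separate culture or holds material of the other two cannot be told apart here, so an SD with n = 3 counts it as a library of its own and may be too small. Most levels are therefore given for each library in the order 1, 2 and 3. Some shares are given only as a mean and SD with n = 3, and the same limit applies to them. The SD over libraries 1 and 2 alone was 1.37 times the SD over all 3 in the median gene.

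The counting also shaped some levels. All 1894 genes whose exons are wholly shared with other genes had 0 counts in the 3 libraries, including 17 protein-coding genes that share exons only with genes on the opposite strand. Reads in shared exons were thus missing from the counts on either strand, and genes with much shared exon sequence are understated. The level of PGAM2, a glycolytic enzyme gene of muscle with all of its exon sequence shared, is thus unknown, with 0 counts in the 3 libraries.

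The cells expressed 14529 genes at 1 CPM or more in all 3 libraries. Of these 12438 were protein-coding, which is 62.3% of the 19969 protein-coding genes in the table, 699 were antisense and 450 were long intergenic RNAs. The counts were spread over many genes: 775, 826 and 808 genes held 50% of the counts, and the 10 genes with the most counts held 11.9%, 11.3% and 11.5%. By counts the first was TTN, the giant sarcomere spring titin, at 23930.4, 20140.0 and 22389 CPM, followed by the nuclear long RNA MALAT1 at 21480.5, 20919.8 and 21328 CPM. Of the other 8, 6 were encoded in mitochondria and 2 were ACTC1 and MYH6. Other abundant long RNAs were NEAT1, the scaffold of paraspeckles, at 4245, 5441 and 4900.1 CPM, and NORAD, which binds the Pumilio proteins, at 713, 747 and 739 CPM. By mean CPM the next long intergenic RNA was EBLN3P, at 79.0, 96.0 and 89.5 CPM. CARMN, a muscle long RNA, came after it, at 103, 64.5 and 82.8 CPM.

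Per length the order was different, titin being very long. RN7SL2, the RNA of the signal recognition particle, stood first at 50991, 48862 and 48765 TPM, with the reservation that it has near-identical copies. Next came MT-CO1 at 35738, 33972 and 34293 TPM and MT-CO2 at 31788, 35518 and 33736 TPM, both subunits of cytochrome oxidase. In all, 14 of the 20 genes with the highest TPM were mitochondrial, and mitochondrial genes took 24.6%, 26.1% and 24.6% of TPM but 6.33%, 6.79% and 6.32% of counts. The 4 nuclear protein-coding genes among these 20 were ACTC1, MYL7, MYH6 and PLN, and all 4 are genes of heart muscle contraction.

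**Figure D1:**
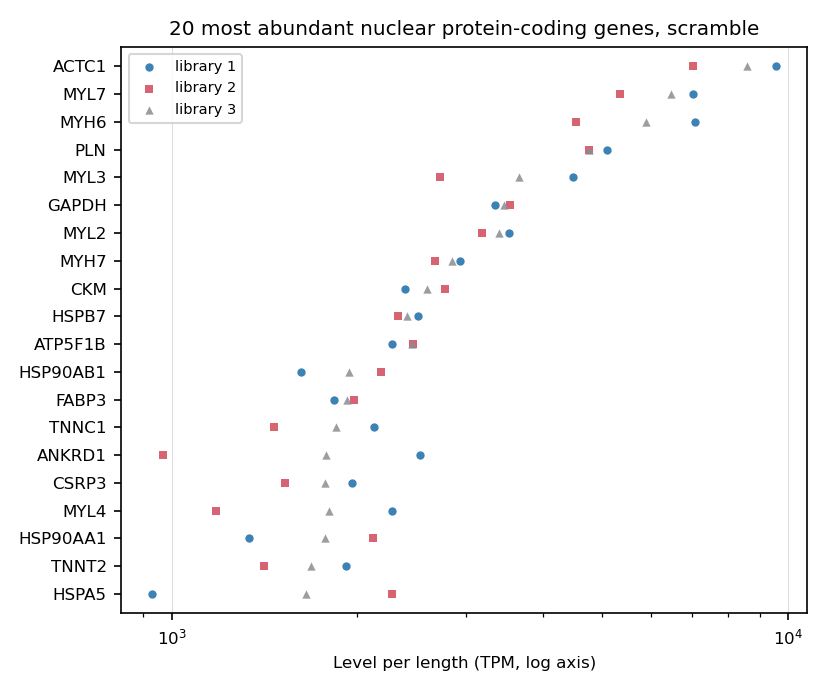
The 20 nuclear protein-coding genes with the highest mean TPM are plotted on a log axis, with 1 point per library. ACTC1 leads at 9563, 7015 and 8598 TPM, and the widest gaps between libraries 1 and 2 are those of ANKRD1 and HSPA5, which point in opposite directions.

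Among nuclear protein-coding genes the first 20 were mostly sarcomere, energy and protein-folding genes. ACTC1 (ENSG00000159251, GRCh 38 chromosome 15, 34788095 to 34795726, minus strand), the cardiac actin, stood at 9563, 7015 and 8598 TPM. MYL7 (ENSG00000106631, GRCh 38 chromosome 7, 44138864 to 44141332, minus strand) and MYH6 (ENSG00000197616, GRCh 38 chromosome 14, 23381990 to 23408277, minus strand) followed at 7018, 5339.7 and 6455 TPM and 7074, 4536 and 5895 TPM. MYH6 was above MYL7 in library 1 and below it in libraries 2 and 3, so their order was not fixed beyond the spread. The order also depended on how length is set. With the length of the longest transcript, means were 9206 TPM for MYL7, 8327 TPM for ACTC1 and 5079 TPM for MYH6, so MYL7 led. PLN, the brake on the calcium pump of the sarcoplasmic reticulum, stood at 5093, 4766 and 4756 TPM and was nearly equal in the 3 libraries.

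The promoters of the labelled cardiomyocyte markers are shown because these genes carry the check of the label that follows. RefSeq (GRCh38.p14) gave a promoter for 4 of the 5 markers, and the 250 bases before each start are printed. Capitals mark TATAAA, the TATA box, and CATTCCT, the core of the MCAT element of muscle genes, on either strand (AGGAATG is its reverse complement).
NPPA (chr1:11847784-11848033, minus strand): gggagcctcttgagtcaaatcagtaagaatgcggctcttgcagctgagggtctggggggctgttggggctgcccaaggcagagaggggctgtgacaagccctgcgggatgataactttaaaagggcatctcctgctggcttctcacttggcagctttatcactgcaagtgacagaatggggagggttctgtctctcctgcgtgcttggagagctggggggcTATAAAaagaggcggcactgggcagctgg
MYL7 (chr7:44141333-44141582, minus strand): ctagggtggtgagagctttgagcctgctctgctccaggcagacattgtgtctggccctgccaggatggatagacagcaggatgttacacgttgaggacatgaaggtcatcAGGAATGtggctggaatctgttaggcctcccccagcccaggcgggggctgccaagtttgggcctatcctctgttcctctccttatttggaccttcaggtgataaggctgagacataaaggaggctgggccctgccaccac
MYH6 (chr14:23408274-23408523, minus strand): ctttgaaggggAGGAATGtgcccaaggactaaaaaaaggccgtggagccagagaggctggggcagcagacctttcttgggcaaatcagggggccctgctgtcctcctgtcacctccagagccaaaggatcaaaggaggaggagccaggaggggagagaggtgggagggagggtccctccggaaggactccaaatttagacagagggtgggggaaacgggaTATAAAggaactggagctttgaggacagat
TNNT2 (chr1:201377681-201377930, minus strand): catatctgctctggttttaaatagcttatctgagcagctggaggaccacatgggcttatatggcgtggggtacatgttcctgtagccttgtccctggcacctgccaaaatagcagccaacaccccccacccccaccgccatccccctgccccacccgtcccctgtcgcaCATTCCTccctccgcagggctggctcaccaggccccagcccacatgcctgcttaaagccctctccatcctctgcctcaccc
Of 35116 promoters of this length, 10.7% held TATAAA and 3.90% held CATTCCT on either strand, each searched on its own, so that a shared base could count for both. In the sarcomere and Z-disc lists, 13 of 40 matched genes held TATAAA and 8 of 40 held CATTCCT. The 13 include the skeletal genes MYH1, MYH2, MYH8 and MYBPC1, which were under 0.1 CPM here. MYH6 held both, MYL7 and TNNT2 held CATTCCT, and NPPA held TATAAA. These matches describe letters and not bound sites.

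The 5 markers given for the label, NPPA, MYL7, MYL4, TNNT2 and MYH6, summed to 18541, 12688 and 16056 TPM. The 111 genes on the marker lists of other cell types summed to 963, 737 and 868 TPM, so the 5 markers held 94.8% ± 0.280 (SD, n = 3) of the combined sum. Transcripts of the heart muscle markers thus far outweighed those of the other lists. Most of the marker sum, a mean of 15761 TPM, came from MYL7 and MYH6, at means of 6271 and 5835 TPM. NPPA gave a mean of 228 TPM. The share therefore rests on a few very abundant transcripts and on the lists chosen. It cannot give the fraction of heart muscle cells, which was not tested. As with all bulk RNA, fewer cells of a type and less RNA per cell cannot be told apart.

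For the chamber, the data were mixed. Atrial and ventricular members of the same family were expressed side by side at similar orders of magnitude, and some defining atrial genes were near 0. MYL7, the atrial regulatory light chain, made up 66.5, 62.6 and 65.5% of the summed TPM of MYL7 and the ventricular MYL2, a mean of 64.9% ± 2.03 (SD, n = 3). MYL2 (ENSG00000111245, GRCh 38 chromosome 12, 110910819 to 110920722, minus strand) itself stood at 3528, 3186 and 3398 TPM. For the essential light chains the ventricular gene led: the atrial MYL4 stood at 2277, 1182 and 1802 TPM and the ventricular MYL3 at 4478, 2727 and 3659.6 TPM, so MYL4 held 33.7, 30.2 and 33.0% of the pair. Both genes were highest in library 1 and lowest in library 2.

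MYH6 and MYH7 lie next to each other on chromosome 14 and encode the alpha and beta heavy chains. MYH6 held 70.6, 62.9 and 67.4% of their summed TPM, a mean of 67.0% ± 3.87 (SD, n = 3), and 66.8% without library 3. MYH7 stood at 2941, 2672 and 2854 TPM and varied less than MYH6. Both genes are close in sequence, so reads that fit both could shift this share. All 21 isoform pairs kept the same gene in the lead with union exons, the longest transcript or unshared exon bases as length, and by raw counts.

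**Figure D2:**
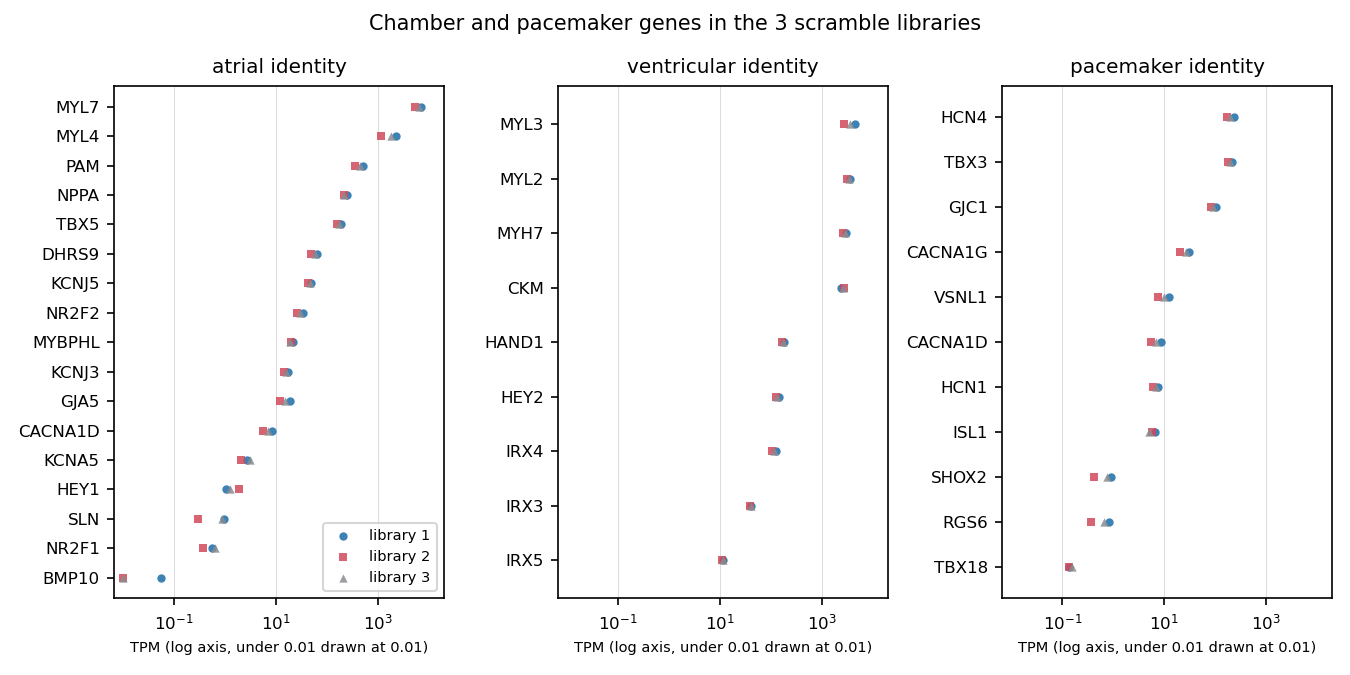
TPM of the genes on the atrial, ventricular and pacemaker lists, on a log axis with 1 point per library. MYL7, MYL3, MYL2 and MYH7 all exceed 1000 TPM in every library, while SLN and BMP10 lie at or under 1 TPM.

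Of 17 genes on the atrial list, 13 reached 1 CPM in all 3 libraries. The peptide hormone NPPA (ENSG00000175206, GRCh 38 chromosome 1, 11845709 to 11848345, minus strand) stood at 251, 217 and 217 TPM. Its relative NPPB, more typical of ventricles and of stretched cells, stood at 598, 407 and 481 TPM and was above NPPA in every library, so NPPA held 31.8% ± 2.66 (SD, n = 3) of the pair. Exons of NPPA are 25.5% shared with another gene, which understates it, and NPPA held 38.5% when only unshared exon bases were counted in the length.

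Atrial transcription factors were present. TBX5, which acts in atria and the left ventricle, stood at 188, 156 and 172 TPM. NR2F2, a retinoid-responsive regulator of atrial genes, stood at 34.3, 26.4 and 29.4 TPM, and its relative NR2F1 at 0.567, 0.373 and 0.624 TPM. NR2F2 was well above NR2F1 in every library. PAM, the enzyme that amidates peptides and a main membrane protein of atrial granules, stood at 522, 361 and 448 TPM. DHRS9, a dehydrogenase of retinoid metabolism, stood at 64.7, 49.7 and 59.1 TPM.

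Some genes that define adult atria were low or at the edge of detection. SLN, the atrial counterpart of PLN, had 10, 4 and 22 counts, and its share of the summed SLN and PLN level was 0.0189, 0.00621 and 0.0186%. BMP10, a ligand of the right atrium, had 1 count in library 1 and 0 in the others. KCNA5, the channel of the ultrarapid atrial potassium current, stood at 2.74, 2.01 and 3.04 TPM, and GJA5, the atrial connexin, at 19.3, 11.8 and 15.1 TPM. The ubiquitous heart connexin GJA1 stood at 174, 178 and 180.0 TPM, so GJA5 held 7.98% ± 1.90 (SD, n = 3) of that pair.

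All 9 genes on the ventricular list reached 1 CPM in all 3 libraries. Beside the myosins and CKM, the muscle creatine kinase, the transcription factor HAND1 stood at 181, 162 and 174 TPM, HEY2 at 144, 125 and 134 TPM and IRX4 at 128, 107 and 116 TPM. IRX4 and HEY2 are known for restraining atrial genes in the ventricle. HAND1, whose early expression is left ventricular, was at a level like that of TBX5.

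Pacemaker genes were split. HCN4, the main channel of the pacemaker current, stood at 234, 170.3 and 202 TPM, and TBX3, the repressor that marks the conduction system, at 219, 179.8 and 199 TPM. GJC1, a connexin of slow-conducting tissue, stood at 103, 83.1 and 93.1 TPM. By contrast SHOX2 stood at 0.917, 0.426 and 0.742 TPM and TBX18 at 0.134, 0.135 and 0.155 TPM, and both are regulators that mark the sinus node. HCN4 held 90.6% ± 2.76 (SD, n = 3) of the summed HCN4 and HCN2 level.

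General cardiac transcription factors were expressed throughout: 24 of 25 on that list reached 1 CPM in every library. TBX20, needed for chamber growth, led at 1028, 877 and 950.1 TPM. MEF2A and NKX2-5, a general muscle factor and a core cardiac homeobox gene, followed at 357, 333 and 348 TPM and 278, 241 and 268 TPM. MYOCD, the SRF partner myocardin, stood at 244, 160.4 and 201 TPM, HAND2 at 209, 184 and 195 TPM, and GATA4 at 174, 174 and 175 TPM. GATA4 was the most even of the 6 and MYOCD the least, with library 1 highest.

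The retinoid machinery was measured because retinoids directed the fate of these cells. CRABP2, which carries retinoic acid to the nucleus, led at 252, 178 and 219.8 TPM, and DHRS3, which returns retinal to storage, stood at 43.1, 64.9 and 53.3 TPM. Among receptors, RARB, itself a retinoic acid target, stood at 38.6, 33.3 and 37.6 TPM, with RXRB at 34.1, 34.6 and 34.7 TPM, RARA at 20.9, 21.1 and 20.1 TPM and RXRA at 12.3, 12.4 and 12.8 TPM. The degrading enzyme CYP26A1, a rapid target of retinoic acid, had 1, 5 and 3 counts, and HOXB1, CRABP1 and ALDH1A3 were under 0.1 CPM as well. The retinoids had been taken off on days 4 to 5 of the protocol.

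Sarcomere genes were led by the cardiac members. In the thick filament, MYBPC3 and MYOM1, which brace myosin, stood at 1544, 1249.8 and 1435 TPM and 1009.9, 742 and 900.1 TPM, and 4 skeletal genes, MYH1, MYH2, MYH8 and MYBPC1, were under 0.1 CPM. In the thin filament, the cardiac and slow troponin C gene TNNC1 stood at 2129, 1466 and 1847 TPM, TNNT2 at 1921, 1413 and 1686 TPM and TPM1, tropomyosin, at 1197, 845 and 1043 TPM. All 3 were highest in library 1 and lowest in library 2. TNNT2 has many annotated exons, so the union length understates it: its mean was 1673 TPM, and 3210.1 TPM with the length of its longest transcript.

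Troponin I showed the immature form in the lead. TNNI1, the slow skeletal form used by the fetal heart, stood at 559.8, 472 and 524 TPM, and TNNI3, the adult cardiac form, at 148, 164 and 150.3 TPM. TNNI3 held 20.9, 25.8 and 22.3% of the pair, a mean of 23.0% ± 2.55 (SD, n = 3). That share depends on how length is set, since exons of TNNI3 are 24.4% shared: it was 33.3% with the longest transcript, 27.5% with unshared exon bases and 7.48% of raw counts, under 50% each time. Cardiac actin ACTC1 held 91.6% ± 1.82 (SD, n = 3) of the summed ACTC1 and ACTA1 level, and TNNT2 held 99.2% ± 0.0741 (SD, n = 3) against the skeletal TNNT1.

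At the Z-disc, where thin filaments are anchored, all 19 listed genes reached 1 CPM in every library. ANKRD1, a stretch-responsive protein that binds titin, stood at 2534, 969 and 1782 TPM, with a gap of 2.62-fold between libraries 1 and 2. CSRP3, a mechanical sensor, stood at 1963, 1526 and 1776 TPM, ACTN2, the actin cross-linker, at 1273, 1209 and 1275 TPM, and LDB3, which binds it, at 961, 683 and 826 TPM. FLNC, filamin C, stood at 713, 857 and 794 TPM and was the only one of the first 5 that was higher in library 2 than in library 1. MYOZ2, which tethers calcineurin, stood at 848, 655 and 745 TPM.

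Ion channel genes were far less abundant than sarcomere genes. Summed levels were 302, 242 and 273 TPM for 18 calcium channel genes and 136, 133 and 136 TPM for 15 voltage-gated potassium channel genes. For 17 inward rectifier, two-pore and calcium-activated potassium channel genes they were 169.6, 154 and 166 TPM. The voltage-gated potassium sum differed little between libraries, while the calcium channel sum was highest in library 1 and lowest in library 2.

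FGF13 and FGF12, intracellular proteins that tune sodium channel gating, stood at 31.9, 30.4 and 31.2 TPM and 11.6, 6.70 and 9.27 TPM. The beta subunits SCN2B and SCN3B stood at 5.23, 6.47 and 6.23 TPM and 1.87, 2.46 and 1.87 TPM. The beta subunit SCN4B stood at 1.05, 1.33 and 1.42 TPM and the alpha subunit SCN3A at 1.83, 1.12 and 1.67 TPM. FGF13 was nearly even across the 3 libraries, while FGF12 was highest in library 1 and lowest in library 2.

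The L-type complex led among the calcium channel genes. CACNA1C, its pore, stood at 67.5, 50.8 and 58.8 TPM, next to the accessory genes CACNA2D1 at 75.0, 62.2 and 69.2 TPM and CACNB2 at 71.6, 55.5 and 63.8 TPM. CACNA1D, the L-type pore of atria and sinus node, stood at 8.56, 5.66 and 6.96 TPM, so CACNA1C held 89.4% ± 0.610 (SD, n = 3) of that pair. The T-type pores CACNA1G and CACNA1H, which open at lower voltage, stood at 31.5, 20.8 and 26.8 TPM and 6.39, 8.98 and 7.73 TPM. They differed in direction, with CACNA1G highest in library 1 and CACNA1H highest in library 2.

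**Figure D3:**
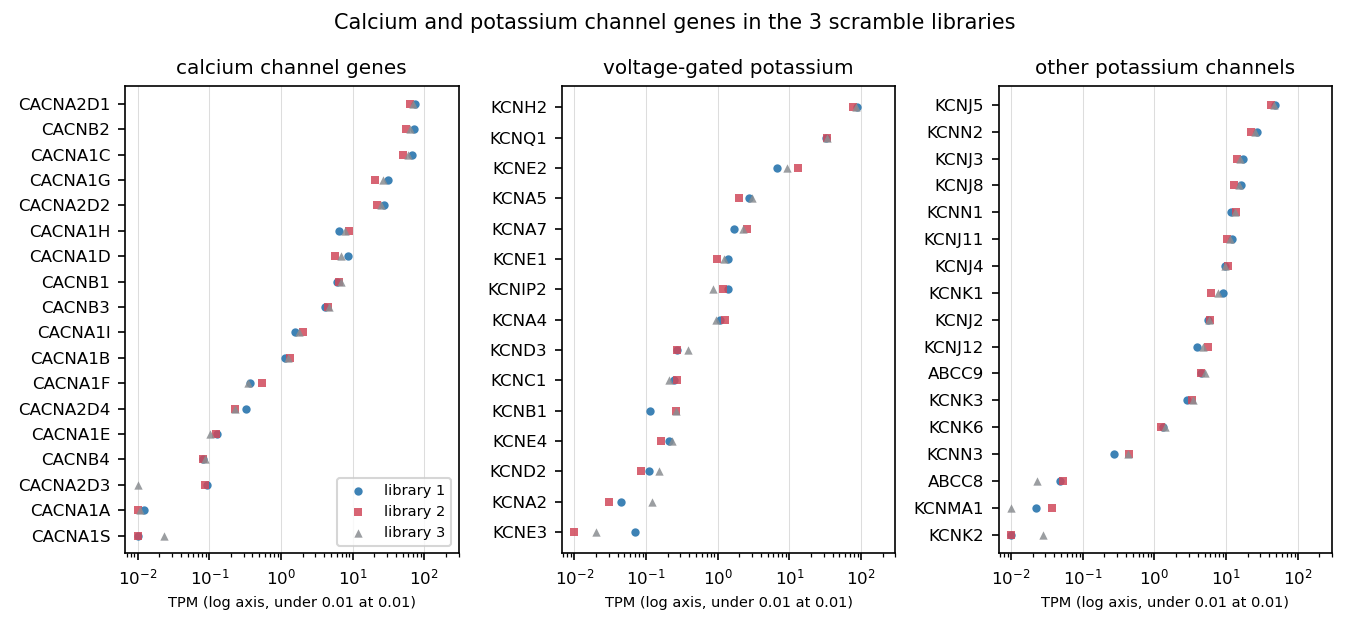
TPM of calcium and potassium channel genes on log axes, with 1 point per library and values under 0.01 TPM drawn at 0.01. CACNA2D1, KCNH2 and KCNJ5 lead their panels, and the leading genes are close together in the 3 libraries.

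Repolarizing channels were led by KCNH2, the pore of the rapid delayed rectifier, at 87.2, 77.0 and 83.8 TPM, and KCNQ1, the pore of the slow one, at 32.8, 33.9 and 33.2 TPM. Their partners KCNE2 and KCNE1 stood at 6.73, 13.2 and 9.24 TPM and 1.41, 0.963 and 1.21 TPM. KCNE2 had only 81, 207 and 267 counts, 34.2% of its exon length is shared, and its library 2 value was the highest. KCNA7, a further voltage-gated channel, stood at 1.70, 2.59 and 2.25 TPM.

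Among the inward rectifiers, both subunits of the acetylcholine-activated atrial channel were among the highest, with KCNJ5 at 48.7, 42.5 and 46.7 TPM and KCNJ3 at 16.9, 14.2 and 15.8 TPM. KCNJ2, the main channel that holds the resting potential of ventricular cells, stood at 5.65, 5.97 and 5.68 TPM, and its share of KCNJ2 plus KCNJ3 was 27.0% ± 2.35 (SD, n = 3). The small calcium-activated channels KCNN2 and KCNN1 stood at 27.1, 22.4 and 25.7 TPM and 11.6, 13.6 and 13.2 TPM, and the ATP-sensitive pores KCNJ8 and KCNJ11 at 15.9, 12.7 and 14.9 TPM and 12.0, 10.3 and 11.4 TPM. CHRM2, the muscarinic receptor that opens the acetylcholine-activated channel, stood at 121, 82.4 and 103 TPM. KCNK2, a stretch-activated two-pore channel, was under 0.1 CPM.

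Connexins were expressed in the order GJA1, GJA3, GJC1 and GJA5. GJA3, best known from the lens, stood at 129.7, 119 and 121 TPM, close to GJA1 and above the atrial GJA5 in every library. The gap between GJA1 and GJA3 exceeded the spread between libraries of either gene.

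For calcium release, 22 of 27 listed genes reached 1 CPM in all 3 libraries. The calcium pump ATP2A2 stood at 729, 808 and 793 TPM, the exchanger SLC8A1 at 386, 374 and 388 TPM and the release channel RYR2 at 358, 369 and 373 TPM, and each varied little between libraries. HRC, a calcium-binding protein of the store, stood at 488, 571 and 538 TPM, and the kinase CAMK2D at 183, 156 and 169 TPM. Of the calsequestrins, which buffer calcium in the store, the cardiac CASQ2 stood at 4.48, 3.51 and 3.54 TPM, below the skeletal CASQ1 at 83.9, 64.6 and 76.7 TPM in every library. JPH2, which ties the store to the surface membrane, stood at 143, 118 and 130.2 TPM, while CAV3 and BIN1, genes of the T-tubule, stood at 0.491, 0.137 and 0.0743 TPM and 3.24, 3.30 and 3.31 TPM.

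Energy genes included both mature and immature isoforms. Glycolysis genes were led by GAPDH at 3344, 3547 and 3462 TPM, ENO1 at 1415, 1439 and 1464 TPM and LDHA at 1449, 1376 and 1466 TPM. LDHB, the form of lactate dehydrogenase typical of adult heart, held 4.40% ± 0.322 (SD, n = 3) of the LDHA and LDHB level. The muscle enolase ENO3 held 26.4% ± 0.573 (SD, n = 3) beside ENO1. For glucose uptake, the insulin-responsive SLC2A4 stood at 111, 128 and 123 TPM and the basal transporter SLC2A1 at 157, 202 and 181 TPM, a share of 40.2% ± 1.32 (SD, n = 3) for SLC2A4. ALDOA, 53.5% of whose exon length is shared, stood at 10.9, 9.71 and 8.91 TPM and is understated.

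Fatty acid oxidation genes were all detected, 20 of 20 at 1 CPM in every library. FABP3, the fatty acid carrier of heart, stood at 1835, 1975 and 1925 TPM, and HADHB and HADHA, the trifunctional protein of beta oxidation, at 329, 328 and 338 TPM and 315, 308 and 321 TPM. The muscle gate CPT1B held 2.89% ± 0.213 (SD, n = 3) of the pair with the liver form CPT1A, but 66.4% of CPT1B is shared with other genes, and it held 8.12% when unshared bases set the length. In the creatine kinases the muscle form led, with CKM at 2388, 2781 and 2599.6 TPM and 96.0% ± 0.363 (SD, n = 3) of CKM plus CKB. COX7A1, a subunit of mature muscle mitochondria, held 1.18% ± 0.137 (SD, n = 3) against COX7A2, and COX6A2, another muscle form, held 26.7% ± 1.61 (SD, n = 3) against COX6A1. The COX6A2 share depends on how length is set. It was 12.8% of raw counts, 20.3% with the longest transcript and 37.0% with unshared exon bases. PYGM, muscle glycogen phosphorylase, held 18.3% ± 0.642 (SD, n = 3) beside PYGB.

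Secreted signals were led by NPPB and the BMP ligands BMP5 and BMP2, at 493, 400.3 and 449 TPM and 424, 271 and 349 TPM. MDK, the growth factor midkine, stood at 347, 279.6 and 319 TPM and VEGFB at 236, 263 and 251 TPM. IGF2 stood at 245, 254 and 229.7 TPM, with 75.0% of its exon length shared. CORIN, the protease that activates NPPA, stood at 151, 83.5 and 118 TPM, whereas the natriuretic receptor NPR1 had 1, 5 and 9 counts and NPPC 1, 4 and 7. EDN3 had no count, which allows up to 0.0282 CPM in library 3.

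**Figure D4:**
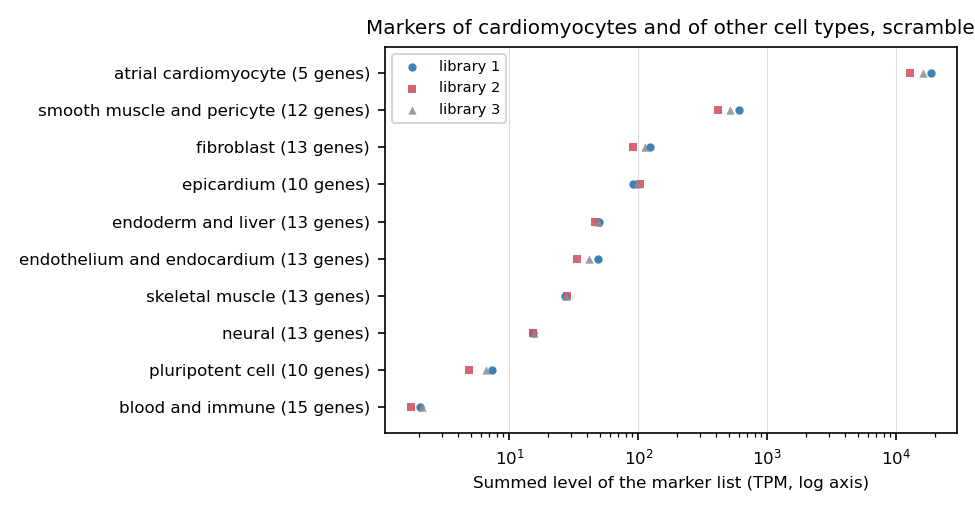
Summed TPM of the cardiomyocyte markers and of 9 marker lists of other cell types, on a log axis with 1 point per library. The 5 cardiomyocyte markers exceed every other list by more than an order of magnitude in each library, and blood and immune markers sum to about 2 TPM.

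Markers of other cell types were low, and several of the sums came mostly from 1 or 2 genes. The smooth muscle and pericyte list summed to 599, 413 and 517 TPM, mainly CNN1, an actin-binding protein, at 250.1, 251 and 252 TPM and ACTA2, smooth muscle actin, at 199.8, 76.8 and 149 TPM. The smooth muscle myosin MYH11 stood at only 0.580, 0.321 and 0.447 TPM. The fibroblast list summed to 123, 90.8 and 112 TPM, led by the collagen COL3A1 at 54.3, 42.2 and 50.8 TPM, and the epicardium list to 90.2, 103 and 98.1 TPM, nearly all of it the keratin KRT19. The fibroblast sum was lowest in library 2, and the epicardium sum was lowest in library 1. Most epicardium genes went the other way from their sum. Of 5 at 1 CPM or more on average, 4 were lower in library 2 than in library 1, with a median log2 difference of -0.61.

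The endothelium and endocardium list summed to 48.8, 33.6 and 41.6 TPM, of which KDR, a VEGF receptor also found in cardiac progenitors, gave 40.5, 22.7 and 32.1 TPM. Of the 13 genes 4 reached 1 CPM in all libraries, namely KDR, the secreted EGFL7 at 3.52, 4.07 and 3.29 TPM, the natriuretic peptide clearance receptor NPR3 at 1.86, 3.58 and 2.90 TPM and the transcription factor NFATC1 at 2.33, 2.67 and 2.86 TPM. The other 9, which include the junction and clotting genes of endothelium, had 15 counts or fewer in every library. PECAM1 had 5, 3 and 15 counts, CDH5 had 10, 9 and 6 and VWF had 0, 3 and 3. The endoderm and liver list summed to 49.8, 46.2 and 48.4 TPM, led by AFP at 20.3, 16.9 and 19.3 TPM and EPCAM at 16.6, 17.3 and 17.8 TPM. Skeletal muscle markers summed to 27.2, 28.1 and 27.5 TPM, nearly all ACTN3, and 8 of 13 were under 0.1 CPM in all libraries, MYOD1, MYF5 and MYF6 among them.

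Neural markers summed to 15.2, 15.2 and 15.4 TPM and blood and immune markers to 2.04, 1.72 and 2.09 TPM, with no count for 5 of the 15 blood genes. Pluripotent cell markers summed to 7.40, 4.86 and 6.56 TPM, mostly from DNMT3B, a DNA methyltransferase active in early embryos, at 6.24, 3.93 and 5.04 TPM. NANOG had 1, 0 and 1 counts, ZFP42 had none, and SOX2 had 0, 1 and 5 counts. Of the 10 genes 6 were under 0.1 CPM in all libraries. Between these and DNMT3B lay TDGF1 with 25, 20 and 67 counts, LIN28A with 14, 12 and 37 and POU5F1 with 3, 9 and 14.

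Matrix genes were led by VCAN, the proteoglycan versican of the embryonic heart, at 543, 379 and 467 TPM and FBN2, the fetal fibrillin, at 359, 269 and 325 TPM. The laminin chains LAMA2 and LAMC1, parts of the muscle basement membrane, stood at 295, 288 and 301 TPM and 275, 219.6 and 249 TPM, and the inhibitor TIMP3 at 310.3, 227 and 276 TPM. All 5 were lower in library 2 than in library 1, LAMA2 by a log2 difference of only -0.04. Of 27 matrix genes, 26 were at 1 CPM in every library.

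Cell cycle genes were expressed, 24 of 24 at 1 CPM or more in every library. PCNA, the sliding clamp of DNA replication, stood at 195, 168 and 180.4 TPM, TOP2A, which untangles DNA for mitosis, at 91.5, 56.0 and 77.4 TPM, and the mitotic kinase gene AURKA at 74.4, 53.5 and 62.6 TPM. Every one of the 24 was lower in library 2 than in library 1, with a median log2 difference of -0.57, and 3 of them by 2-fold or more. Over all 15085 genes at 1 CPM or more on average, 47.9% were lower in library 2 and 0.829% by 2-fold or more.

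Between the libraries most genes agreed closely. Of 7296 genes at 20 CPM or more, 5887 (80.7%) differed by no more than 1.2-fold between libraries 1 and 2, 22 (0.302%) were at least 2-fold higher in library 2 and 14 (0.192%) at least 2-fold higher in library 1. Library 3 lay between the other two for all 36 of these. The biological coefficient of variation, the spread beyond counting error, was 9.62% over the 3 libraries and 14.1% over libraries 1 and 2. Over 40 cytosolic ribosomal protein genes the median log2 difference was 0.00, with 19 higher and 21 lower in library 2.

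**Figure D5:**
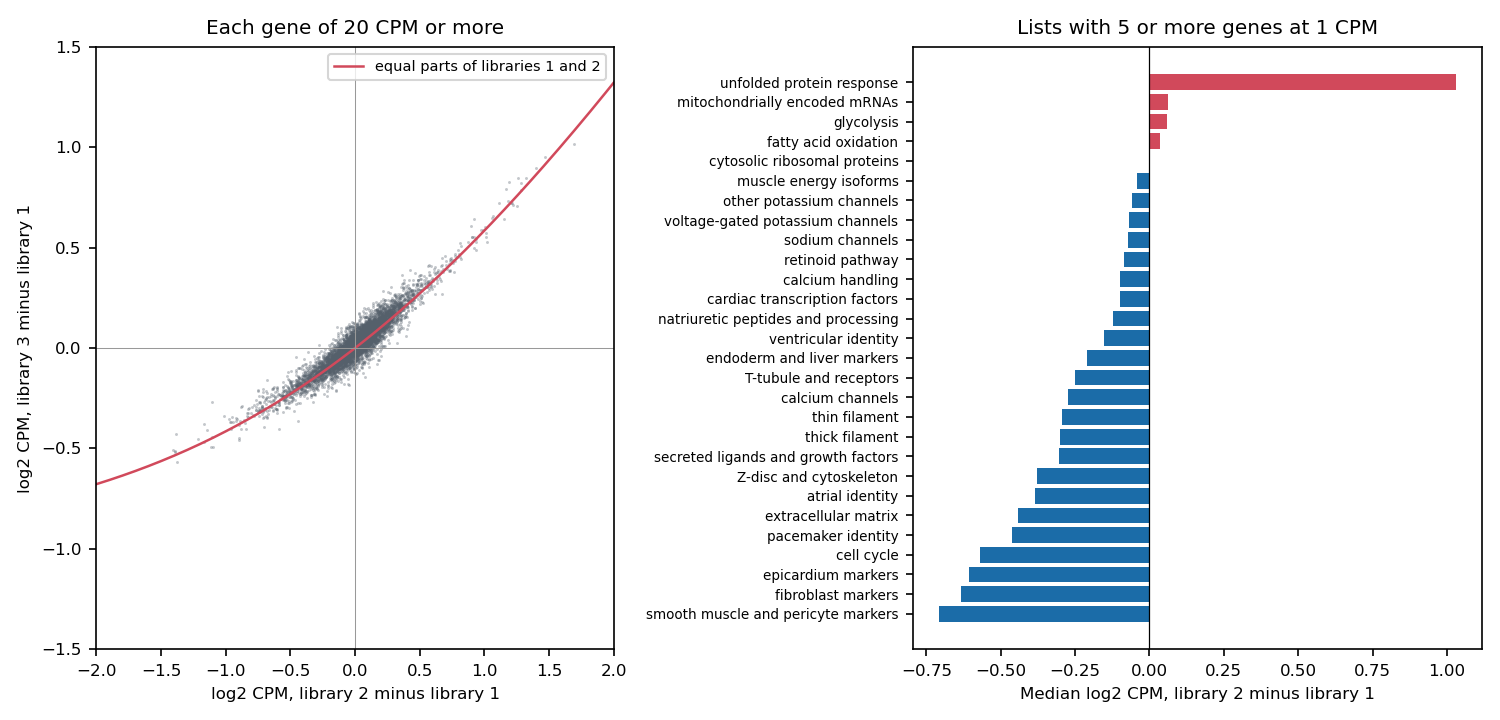
Left, log2 CPM of library 3 minus library 1 against library 2 minus library 1 for genes at 20 CPM or more, with the curve of a mix in equal parts. Right, median log2 CPM of library 2 minus library 1 for each list, which runs from -0.71 for smooth muscle and pericyte markers to 1.03 for the unfolded protein response.

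The genes at the extremes fell into 2 kinds. Higher in library 2 were NMB, the peptide neuromedin B, at 12.3, 39.8 and 24.9 CPM, and 4 genes that act on protein folding in the endoplasmic reticulum. PDIA4, a disulfide isomerase, stood at 107, 296 and 207 CPM, and HERPUD1, a factor that helps to clear misfolded proteins, at 103, 251 and 177 CPM. The chaperones HSP90B1 and HYOU1 stood at 820.0, 2161 and 1525 CPM and 141, 354 and 254 CPM. All 5 were lowest in library 1 and highest in library 2. Higher in library 1 were CREB5, a transcription factor, at 51.0, 19.2 and 35.8 CPM, the secreted protease-like PRSS35 at 108, 40.9 and 75.2 CPM, and ANKRD1 at 1299.7, 495 and 911 CPM. ACTA2 and ENG, the TGF-beta co-receptor endoglin, were also higher in library 1, at 154, 59.0 and 114 CPM and 44.0, 16.9 and 29.7 CPM. These genes were picked for their range, so their gaps are a description.

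The unfolded protein response is the program that cells switch on when proteins fail to fold in the endoplasmic reticulum, and it raises chaperones through ATF6, XBP1 and PERK. All 22 listed genes were higher in library 2 than in library 1, with a median log2 difference of 1.03, and 12 of 22 by 2-fold or more. Over all genes at 1 CPM or more on average 52.1% were higher in library 2 and 0.617% by 2-fold or more, and the median log2 difference over genes at 20 CPM or more was 0.02. This list, like the others, was chosen with earlier results of these data known, so its counts are a description. It holds 11 of the 22 genes at 20 CPM or more that were at least 2-fold higher in library 2. The list summed to 4579.7, 9522 and 7198 TPM. HSPA5, the chaperone BiP, stood at 931, 2277 and 1653 TPM, and CALR, calreticulin, at 698, 1239.8 and 996 TPM. By its mean of 1620 TPM HSPA5 ranked 20 among nuclear protein-coding genes. In library 1 its level was the lowest of the 20 genes with the highest means, so the rank leans on library 2. DDIT3, a stress-induced transcription factor, stood at 44.6, 103 and 73.8 TPM and XBP1 at 126, 204 and 173 TPM. In each of these 4 genes library 3 was between the other two.

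The promoters of 4 of these genes are shown because the list moved together between libraries. Capitals mark the endoplasmic reticulum stress elements ERSE (CCAAT, 9 bases of any kind, CCACG) and ERSE-II (ATTGG, 1 base of any kind, CCACG), on either strand, in the 250 bases before each start (RefSeq, GRCh38.p14).
HSPA5 (chr9:125241344-125241593, minus strand): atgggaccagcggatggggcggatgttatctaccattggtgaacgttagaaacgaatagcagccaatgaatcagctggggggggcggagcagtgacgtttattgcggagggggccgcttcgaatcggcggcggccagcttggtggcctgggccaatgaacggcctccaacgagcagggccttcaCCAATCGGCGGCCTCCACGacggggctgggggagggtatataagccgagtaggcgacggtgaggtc
HSP90B1 (chr12:103930160-103930409, plus strand): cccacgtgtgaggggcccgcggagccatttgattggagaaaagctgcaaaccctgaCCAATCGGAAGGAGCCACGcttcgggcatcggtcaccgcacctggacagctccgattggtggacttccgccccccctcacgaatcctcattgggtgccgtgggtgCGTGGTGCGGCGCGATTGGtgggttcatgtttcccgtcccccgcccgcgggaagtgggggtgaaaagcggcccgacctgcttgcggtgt
HYOU1 (chr11:119057206-119057455, minus strand): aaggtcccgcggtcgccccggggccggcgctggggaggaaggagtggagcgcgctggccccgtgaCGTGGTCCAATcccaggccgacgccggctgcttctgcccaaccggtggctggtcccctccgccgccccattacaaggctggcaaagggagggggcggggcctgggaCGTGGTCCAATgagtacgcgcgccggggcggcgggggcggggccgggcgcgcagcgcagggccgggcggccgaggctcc
HERPUD1 (chr16:56931892-56932141, plus strand): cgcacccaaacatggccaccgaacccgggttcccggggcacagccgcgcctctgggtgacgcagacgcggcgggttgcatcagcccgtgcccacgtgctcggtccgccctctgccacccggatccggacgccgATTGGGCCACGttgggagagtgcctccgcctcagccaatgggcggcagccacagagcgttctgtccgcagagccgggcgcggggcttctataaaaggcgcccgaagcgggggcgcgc
One or the other element was found in 10 of 21 matched genes of the list and in 0.125% of 35116 promoters. HSP90B1 held ERSE on both strands and HYOU1 held 2 copies of ERSE-II. Of all promoters 26 held ERSE, 18 held ERSE-II and none held both. These are matches of letters in promoters and no measurement of binding. The elements are named for endoplasmic reticulum stress, as the list is, so their frequency in the list is no separate evidence. Their part in the difference between libraries was not tested.

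Many other lists had most of their genes lower in library 2, against 47.9% of all genes at 1 CPM or more on average. Some lists went the other way, against 52.1% of all genes higher in library 2. Higher there were 11 of 13 mitochondrially encoded mRNAs, 15 of 23 glycolysis genes and 13 of 20 fatty acid oxidation genes. The same held for 3 of 4 endothelium and endocardium markers. The median log2 difference was -0.38 for the atrial list, with 13 of 14 genes lower, -0.15 for the ventricular list, with 8 of 9 lower, and -0.46 for the pacemaker list, with 9 of 9 lower. It was -0.30 for the thin filament, with 13 of 16 lower, and -0.30 for the thick filament, with 12 of 14 lower. Matrix genes had a median of -0.44, with 25 of 26 lower, fibroblast markers -0.63, with 6 of 7 lower, and smooth muscle and pericyte markers -0.71, with 8 of 10 lower. Among the myosin genes of both chambers the atrial light chains MYL4 and MYL7 differed by -0.95 and -0.40 on the log2 scale, and the ventricular MYL3 and MYL2 by -0.72 and -0.15. The heavy chains MYH6 and MYH7 differed by -0.65 and -0.14. MYL3 thus differed by more than MYL7 and MYH6 did. The share of MYH6 among the heavy chains went from 70.6% in library 1 to 62.9% in library 2. The part of the markers of other cell types, and of depth, in these differences was not tested.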

How the data were processed

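RNA-seq was read from 3 scramble libraries. The authors deposited whole-number read counts per gene for 15 libraries, left unnormalized. The submitters' processing notes name the tools STAR 2.7.9a and DESeq2 1.30.1 and the build GRCh 38 without saying what each did. No source used here names the counting program or its strand setting. Ribosomal RNA was depleted, per the labels' protocols, while the molecule field names polyA RNA, which bears on RNAs without a polyA tail. Replication-dependent histone genes held 0.0979%, 0.0727% and 0.0867% of counts.

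Column names gave the group but not the labelled sample, and library numbers follow column order. Of 59429 rows, 58780 had GENCODE release 29 identifiers. The other 649 held 0.00302% to 0.00366% of counts and were left out. CPM used TMM factors from edgeR 4.0.16 under R 4.3.3. TPM used the union of a gene's exons as length, in Python 3.11.15 with pandas 2.3.3. The coefficient of variation was edgeR's common dispersion after its expression filter (20963 genes). The mix of library 3 was a least-squares fit on CPM, weighted by counting variance for genes at 20 CPM or more. Both were tested on simulated data. No group was compared with another and no p-value was computed.

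Members and the 35 gene lists (560 genes, 416 at 1 CPM or more in all 3 libraries) were chosen with earlier results of these data known, and 2 further genes are not reported here. The naming rule took the 20 genes highest in TPM, the 10 highest in CPM, the 10 with the widest range at 20 CPM or more (5 in each direction), up to 6 members of each list by TPM, members under 0.1 CPM and the members of the 21 pairs. NEAT1, NORAD, EBLN3P, CARMN, NR2F1, NR2F2, KCNA5, SHOX2, TBX18, CASQ1, CASQ2, CAV3, BIN1, DDIT3, XBP1, MYH11 and PECAM1 were chosen after their values were seen. Where 2 rows share a symbol (RGS5, IGF2), the row with more counts was used. Promoters came from RefSeq (GRCh38.p14). The alternatives were other scalings, other gene lengths, other level thresholds and leaving out each library.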

Additional observations from a re-analysis of the deposited data

How the results depend on the processing

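No paired analysis was possible because only 1 group is described, with no test, and the column numbers pair nothing. Genes detected in all 3 libraries numbered 30622 at 1 count in place of 1 CPM. The 10 most abundant genes held 9.21% of counts without mitochondrial genes and 10.4% among protein-coding genes. TNNI3 held 7.48% of raw counts of the TNNI3 and TNNI1 pair, 33.3% with the longest transcript and 27.5% with unshared exon bases, the last chosen after seeing the data. The coefficient of variation was 9.63% with median-of-ratios scaling (DESeq2 1.42.0), 9.94% with no filter, 8.22% at 20 CPM or more and 7.03% to 14.1% with 1 library left out, highest without library 3. The share of library 1 in the mix was 54.9% by an unweighted fit over genes at 1 CPM or more, 50.9% weighted, 54.92% at 20 CPM or more, 49.2% at 1 to 20 CPM and 55.7% on TMM-scaled values. The MYH6, MYL7 and cardiac marker shares stayed within 1 SD under every alternative run. At 1 CPM the counting error limits what can be said of single genes.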

Other observations

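The same measure of libraries lying between others was taken in the other 4 groups at 20 CPM or more. In the siRNA-1 group, 60.7% of 7364 genes had their library 2 value between the other two, with a best mix of 60.4% of library 1 and 39.6% of library 3 and squared deviations 2.90 times those of counting error. In the control lentivirus group, library 2 lay between for 57.9% of 6848 genes, with a best mix of 45.9% and 54.1% and 4.51 times. In the siRNA-2 group the highest share was 40.5% of 7508 genes for library 2. Its best mix was 67.1% of library 1 and 32.9% of library 3, at 14.4 times. Library 1 of that group had 12.6 times, with 95.3% of library 2 in its best mix. In the ATRNL1 lentivirus group the highest share was 44.0% of 6830 genes for library 1. Its best mix was 0.384% of library 2 and 99.6% of library 3, at 113.0 times. Library 3 of that group lay between for 31.3% of genes. The best mix for it was 52.7% of library 1 and 47.3% of library 2, at 39.2 times.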
